A study of Mus musculus with 2 samples.

Results

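The let-7 family is a group of near-identical mature miRNAs, and miR-98 belongs to it by sequence. The members described here are the 9 mature 5p miRNAs let-7a (MIMAT0000521), let-7b (MIMAT0000522), let-7c (MIMAT0000523), let-7d (MIMAT0000383), let-7e (MIMAT0000524), let-7f (MIMAT0000525), let-7g (MIMAT0000121), let-7i (MIMAT0000122) and miR-98 (MIMAT0000545). They were picked by these miRBase accessions out of the 610 features of the array table. All 9 had an intensity on both arrays, as did 258 of the 610 features. The liver-null array held RNA from livers of male mice lacking Hnf4a in the liver (Hnf4aΔH), and the floxed array held RNA from livers of Hnf4af/f males, which carry the loxP-flanked gene. Both groups were 45 days old and of mixed 129SV + C57BL/6 background. HNF4a, a transcription factor of the nuclear receptor class, maintains hepatocyte gene expression, and the series asked which liver miRNAs depend on it. The sources used here do not say which Cre transgene removed the gene, or whether an array held 1 liver or a pool.

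Each genotype had 1 array, so every value below is a single measurement with no replicate error, and no test, p-value or interval is given. In whole liver RNA, fewer cells of a type and less miRNA per cell cannot be told apart. The table was labelled by accession only, and the names of the 9 members came with the accessions that defined the family. No other feature was matched to a name. The liver label was therefore not checked against the hepatocyte miRNA miR-122, and markers of blood, endothelial and stromal cells were not applied.

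Let-7 miRNAs pair with messenger RNAs mainly through bases 2 to 8 of the mature strand, the seed, and lower the output of the targeted transcripts. They accumulate as cells differentiate and are abundant in adult tissues, including liver. Known targets in mammals include the growth and fetal genes Hmga2, Myc, Lin28b and members of the Ras family. The RNA-binding proteins LIN28A and LIN28B block the maturation of let-7 precursors, which keeps mature let-7 low in embryonic cells.

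The mature sequences are shown because members that differ by 1 or 2 bases may bind each other's probes, which bears on how far their intensities are separate measurements. All 9 names matched a mature mouse sequence in RefSeq's GRCm38.p6 annotation, each 22 bases long, printed 5′ to 3′ with the seed in capitals.
let-7a-5p: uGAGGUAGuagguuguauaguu
let-7b-5p: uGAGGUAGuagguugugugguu
let-7c-5p: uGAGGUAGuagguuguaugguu
let-7d-5p: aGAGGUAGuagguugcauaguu
let-7e-5p: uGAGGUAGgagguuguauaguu
let-7f-5p: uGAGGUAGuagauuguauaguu
let-7g-5p: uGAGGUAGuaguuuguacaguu
let-7i-5p: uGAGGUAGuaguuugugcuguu
miR-98-5p: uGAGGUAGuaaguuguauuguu

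All 9 carried the same seed, so the members differed only outside it. With positions counted from 1 at the 5′ end and the let-7a base written first, let-7c differed from let-7a by A19G alone, let-7e by U9G alone and let-7f by G12A alone. Let-7b differed by A17G and A19G, let-7d by U1A and U16C, let-7g by G12U and U18C, and miR-98 by G11A and A19U. Let-7i was the most distant from let-7a, with G12U, A17G, U18C and A19U. Of the 1679 mature mouse miRNA names in the RefSeq table, 11 had this seed. The 2 outside the members were let-7k and miR-1961, and no array value was assigned to either.

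The 9 mature miRNAs lie in 12 hairpin genes on 7 chromosomes in GRCm38.p6, and 3 of them are made from a pair of loci. Let-7a lies at chr13:48538239-48538260 on the minus strand in Mirlet7a-1, close to let-7f in Mirlet7f-1 at chr13:48537889-48537910 and let-7d at chr13:48536078-48536099, both also on the minus strand. The hairpins of this cluster stand 261 and 1714 bases apart, and no other annotated gene spans them. The second let-7a copy, Mirlet7a-2, at chr9:41536732-41536753 on the plus strand, lies within the span of the long non-coding gene Mir100hg, near Mir100. Let-7c in Mirlet7c-2 at chr15:85706616-85706637 and let-7b at chr15:85707325-85707346 are both on the plus strand within the span of the long non-coding gene Lncppara, with 621 bases between their hairpins. The second let-7c copy, Mirlet7c-1, at chr16:77599672-77599693 on the plus strand, neighbours Mir99a.

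The second let-7f copy, Mirlet7f-2, at chrX:151912353-151912374, and miR-98 at chrX:151913229-151913250 are on the plus strand within the span of Huwe1, which encodes a ubiquitin ligase. Their hairpins are 785 bases apart. Let-7e at chr17:17830366-17830387 on the plus strand lies within the span of Spaca6, near Mir125a. Let-7g at chr9:106178846-106178867 on the plus strand lies within the span of Wdr82. Let-7i at chr10:122985698-122985719 on the minus strand has no other hairpin within 10 kb and no other annotated gene across it. Whether the spanning genes hold the hairpins in exons or introns was not analysed here.

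The family gave strong signal in both livers. The 9 intensities summed to 3634 on the liver-null array and 3975 on the floxed array, a ratio of 0.914. This was 12.8% of the total intensity of the liver-null array and 13.8% of that of the floxed array. The sum is led by the brightest probes, and probes differ in brightness for equal amounts of miRNA. Of the 10 brightest features on each array, 4 were family members on the liver-null array and 4 on the floxed array. They were let-7a, let-7c, let-7d and let-7f in both livers, and they held ranks 6 to 9 on the liver-null array and 6, 7, 8 and 10 on the floxed array.

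The members split by direction along their brightness. Let-7a, let-7b, let-7c, let-7d, let-7f and let-7g, the 6 brightest members on both arrays, had lower intensities in the liver-null liver, although with quantile normalization let-7c came to no difference and let-7d and let-7f turned higher. Let-7e, let-7i and miR-98, the 3 dimmest, had higher ones. Differences below are liver-null minus floxed on the log2(intensity + 1) scale, on which 1.5-fold is 0.58 and 2-fold is 1, and none of the 9 (0) reached 1.5-fold. Over all 258 features with a value on both arrays, 29.8% differed by at least 1.5-fold and 12.0% by at least 2-fold.

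**Figure D1:**
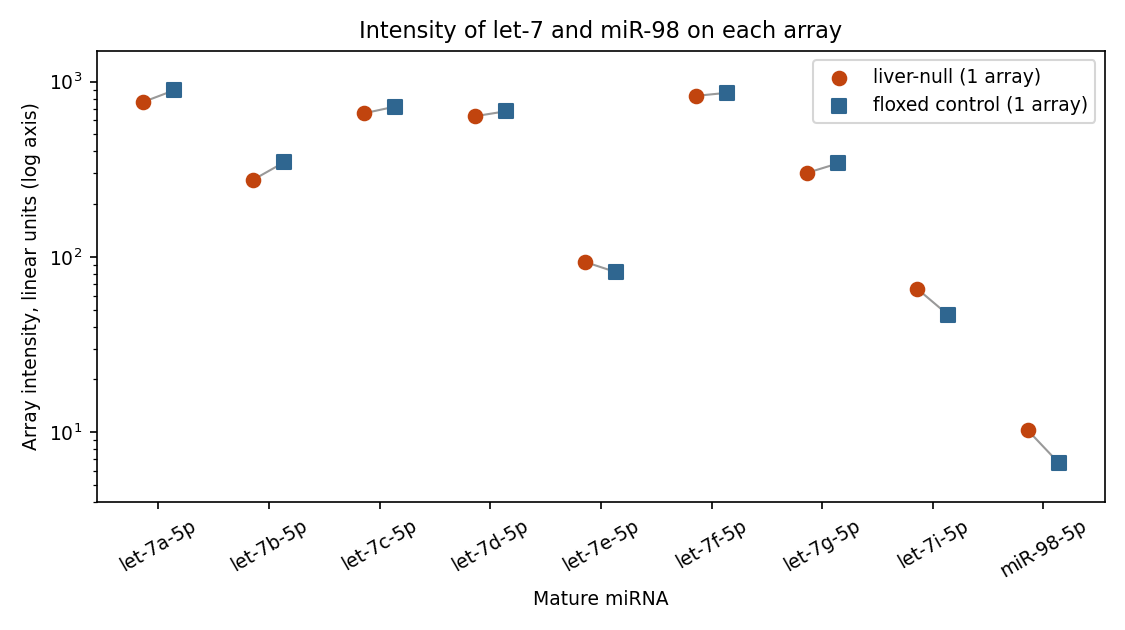
Array intensity (log axis, linear intensity units) of each of the 9 mature miRNAs on the liver-null array (circles) and the floxed control array (squares), with 1 array per genotype and no error bars. The lines joining each pair slope gently, with the liver-null point below the floxed one for let-7a, b, c, d, f and g and above it for let-7e, let-7i and miR-98 (let-7c, d and f did not stay lower with quantile normalization).

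Among the 3 members made at the chromosome 13 cluster, let-7a had an intensity of 764 in the liver-null liver and 891 in the floxed liver, a log2 difference of -0.22. Let-7f had 829 in the liver-null liver and 863 in the floxed liver, a difference of -0.06. Let-7d had 634 in the liver-null liver and 677 in the floxed liver, a difference of -0.09. The liver-null over floxed ratios of let-7a, let-7f and let-7d were 0.857, 0.960 and 0.937, and let-7a and let-7f exchanged ranks 6 and 7 between the arrays.

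At the chromosome 15 cluster, let-7b had an intensity of 276 in the liver-null liver and 347 in the floxed liver. Its log2 difference of -0.33 was the lowest of the family. Its neighbour let-7c, which also has a copy on chromosome 16, had 660 in the liver-null liver and 720 in the floxed liver, a difference of -0.13. Let-7b ranked 23 on the liver-null array and 17 on the floxed array, while let-7c ranked 8 on both. Let-7g, from its single locus on chromosome 9, had 301 in the liver-null liver and 341 in the floxed liver, a difference of -0.18.

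The 3 members that were higher in the liver-null liver each come from 1 locus, as do let-7b, let-7d and let-7g among the lower ones. Let-7e had an intensity of 93.4 in the liver-null liver and 81.7 in the floxed liver, a log2 difference of 0.19. Let-7i had 65.7 in the liver-null liver and 46.6 in the floxed liver, a ratio of 1.41 and a difference of 0.49. MiR-98 had 10.2 in the liver-null liver and 6.65 in the floxed liver, a ratio of 1.54 and a difference of 0.55. Its linear ratio passed 1.5-fold while its difference with a pseudocount of 1 did not, because the added 1 weighs most on a dim feature. MiR-98 was brighter than the median of the 258 features, at 6.23 for the liver-null array and 5.50 for the floxed array. It was still low in the measured range, with a mean log2 level of 3.21 where these features ran from 1.18 to 12.9.

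MiR-98 and let-7f share the chromosome X cluster, yet their log2 differences were 0.61 apart. Let-7f also comes from chromosome 13, so its probe reads 2 loci at once, and the arrays do not separate them. The same holds for let-7a and let-7c, while let-7b, let-7d, let-7e, let-7g, let-7i and miR-98 each had 1 hairpin in the RefSeq table.

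The differences of the 9 members ranged from -0.33 to 0.55, with a median of -0.09. Over all 258 shared features the median was -0.06, the 25th percentile -0.33 and the 75th percentile 0.36. Let-7b lay above 64 of the 258 features (24.8%), just under the 25th percentile. Let-7i lay above 207 (80.2%) and miR-98 above 215 (83.3%), both over the 75th percentile. The remaining 6 members lay between these percentiles. The count of 6 members lower out of 9 stands beside 55.0% of all shared features with a lower liver-null value, so neither the median nor the direction set the family apart from the array as a whole.

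**Figure D2:**
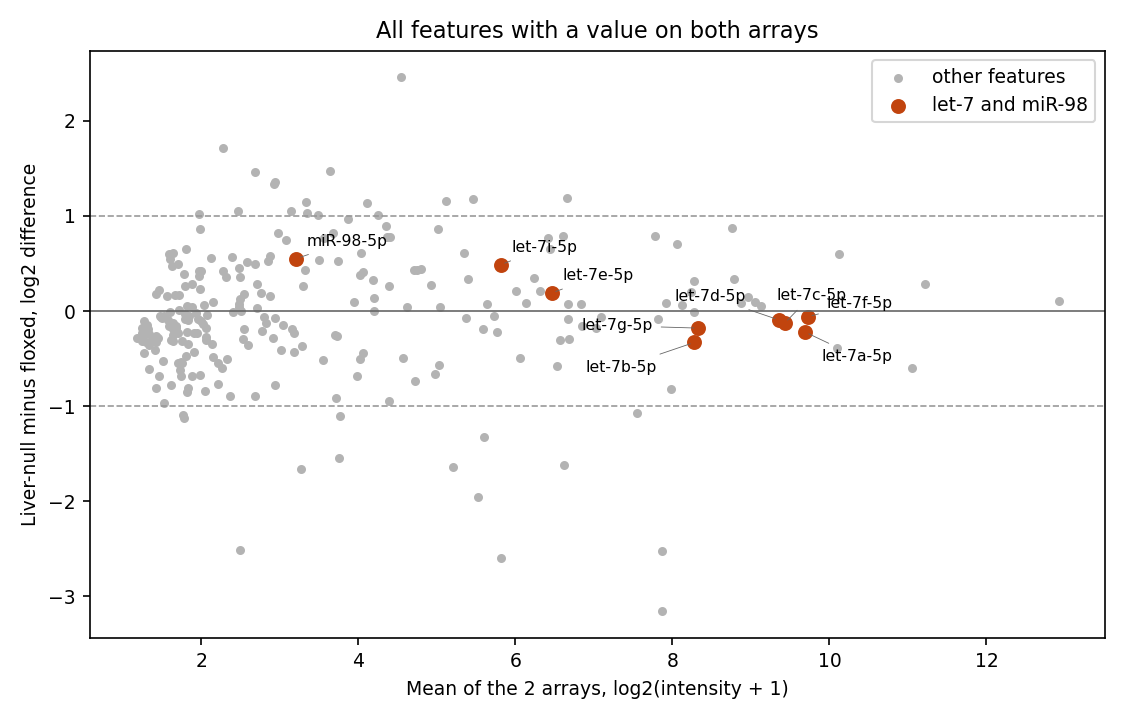
Log2 difference, liver-null minus floxed, against the mean log2(intensity + 1) of the 2 arrays for the 258 features with a value on both. The 9 members (labelled, red) lie within the dashed 2-fold lines, with the 6 brightest between -0.33 and -0.06 (of which let-7c, d and f did not stay below 0 with quantile normalization) and the 3 dimmest between 0.19 and 0.55, while other features (grey) reach beyond -3 and 2.

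By mean level, 8 members, all but miR-98, belonged to the brightest 65 of the shared features, a quartile where the median difference was 0.04 and 49.2% of features were lower in the liver-null liver. These 8 members had a median difference of -0.11, and 6 of them were lower, or 3 with quantile normalization. MiR-98 was in the next quartile down (64), where the median difference was 0.30. Brightness bands set to the members' own range, after their values had been seen, held other features with these values. Between the mean log2 levels of 8.28 and 9.73 spanned by the 6 lower members there were 7 other features, and all 7 were higher in the liver-null liver, by 0.05 to 0.87, with a median of 0.15. Relative to the shift of the array medians given below, 3 of the 7 were higher and 4 lower. With quantile normalization 6 were higher and 0 lower, and with 75th percentile or loess centring all 7 were higher. The nearest features outside this band, at 8.27 and 10.1, had differences of -0.01 and -0.39, so the count depends on the band's edges. Between 3.21 and 6.47, the range of the 3 higher members, 42 of 68 other features (61.8%) were higher in the liver-null liver, with a median of 0.23. The part of brightness in the order of the members was not tested.

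The contrasts between members do not change when a constant is taken off all log2 values of an array. Let-7i stood 0.82 above let-7b and 0.71 above let-7a on the log2 scale of the difference, and miR-98 stood 0.88 above let-7b, the widest gap of the 36 pairs. From the lowest to the highest member the differences spanned 0.88, and between 0.70 and 0.95 under the other settings tried. The highest member was not always miR-98. Let-7i was highest at 0.50 with quantile normalization, 0.36 with loess centring and 0.38 with a pseudocount of 16. MiR-98 stood at 0.36, 0.34 and 0.21 under these settings. A sequence comparison was made across these pairs. The 4 pairs that differ by 1 base, let-7a with let-7c, let-7e and let-7f, and let-7b with let-7c, had gaps of 0.10, 0.41, 0.16 and 0.20. Let-7a and let-7e, which differ by U9G alone, thus lay on opposite sides of 0.

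Pairs that differ by 2 bases (10 pairs) had a median gap of 0.19, those that differ by 3 (11 pairs) 0.36 and those that differ by 4 (9 pairs) 0.55. The single pair 5 bases apart, let-7e with let-7i, had a gap of 0.30, and the single pair 6 bases apart, let-7d with let-7i, one of 0.58. The ranges overlapped widely, from 0.04 to 0.77 at 2 bases and from 0.07 to 0.73 at 4. Let-7c and let-7d, 3 bases apart, had the smallest gap of all, 0.03. The 15 pairs that hold let-7i or miR-98, singled out after their values were seen, had a median gap of 0.65, against 0.15 for the other 21 pairs. Let-7i and miR-98 had the highest differences of the family, so wider gaps come with this choice. The pairs share members and are not independent. Members this alike can cross-hybridise, and the part of cross-hybridisation in these gaps was not tested.

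**Figure D3:**
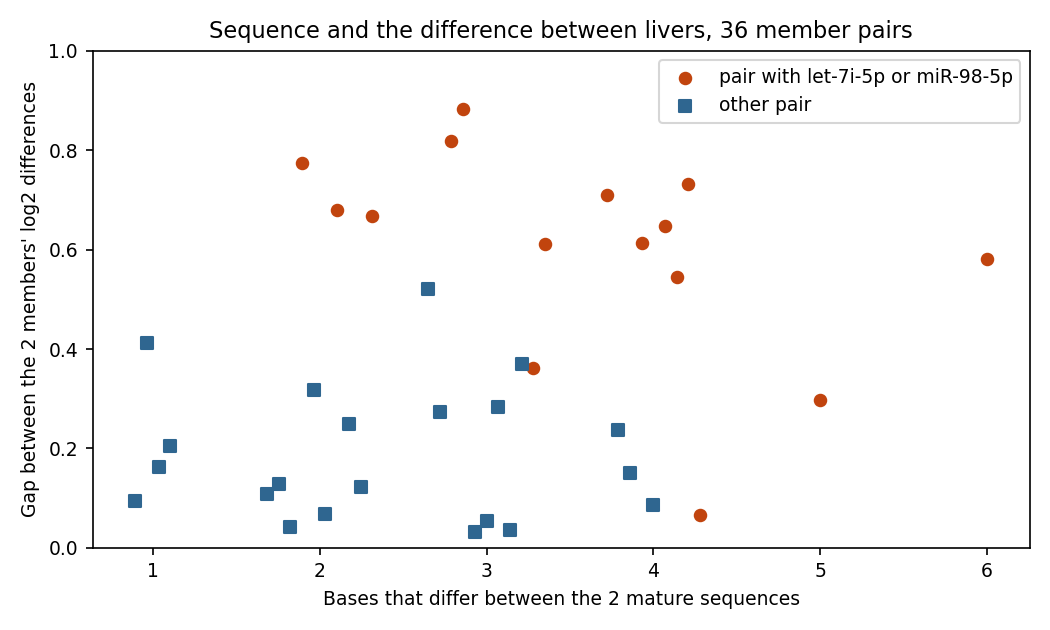
Gap between the log2 differences of 2 members against the number of bases by which their mature sequences differ, for all 36 pairs, with points spread sideways for legibility. Pairs with let-7i or miR-98 (circles), singled out after their values were seen, have a median gap of 0.65 and other pairs (squares) of 0.15. Let-7i and miR-98 have the highest differences of the family, so wider gaps come with this choice. Both kinds overlap at 3 and 4 bases and not at 2, and at 1, 5 and 6 bases there is 1 kind alone.

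The directions of the smaller differences depended on how the arrays were scaled to each other. The shared features had a median log2 level that was higher by 0.15 in the liver-null liver. Relative to that shift the 6 lower members stood between -0.48 (let-7b) and -0.21 (let-7f). On the same footing let-7e stood at 0.04, let-7i at 0.33 and miR-98 at 0.40, again with 6 members lower, beside 64.7% of all shared features. With quantile normalization let-7c came to 0, because it ranked the same on both arrays among the brightest features, and let-7d and let-7f turned to 0.08 each, which left 3 members lower, beside 44.6% of all shared features.

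Let-7a, let-7b and let-7g stayed lower and let-7e, let-7i and miR-98 stayed higher in the liver-null liver under the main processing and all 6 alternatives. The pseudocount settings among these could not turn a direction, since adding a constant keeps the larger intensity larger. Centring on the 75th percentile moved every value by 0.02, less than any member's difference. Median centring lowered every value by 0.15, so it could not turn a lower member. Over all 7 settings let-7b ranged from -0.48 to -0.31 and let-7i from 0.33 to 0.51. MiR-98 ranged from 0.21 with a pseudocount of 16 to 0.62 with none, the only setting at which any of the 9 passed 1.5-fold, when 39.1% of all shared features did. Let-7e came as near to 0 as 0.04. With quantile normalization let-7a came to -0.08 and let-7g to -0.09, about as near to 0 as let-7d and let-7f at 0.08. Let-7a and let-7f exchanged ranks 6 and 7 between the arrays, so their values under that setting were equal and opposite. None of the 9 (0) reached 2-fold under any of the 7 settings.

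**Figure D4:**
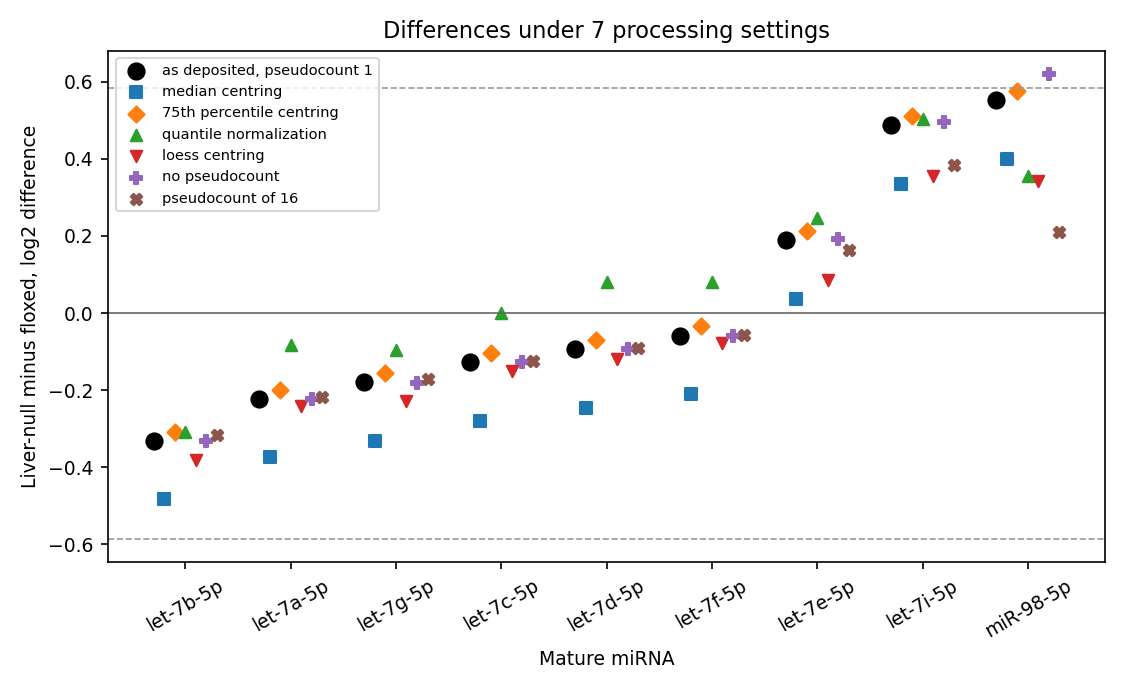
Log2 difference, liver-null minus floxed, of each member under 7 processing settings, with dashed lines at 1.5-fold. Let-7a, let-7b and let-7g stay below 0 and let-7e, let-7i and miR-98 above it throughout, while let-7c, let-7d and let-7f reach or cross 0 with quantile normalization (upward triangles).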

How the data were processed

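Liver RNA was labelled with Hy5 using an Exiqon miRCURY LNA kit, per the labels' protocols. The authors deposited 1 table of processed linear intensity values. The sources used here do not give the array design, background correction, filter, normalization or the meaning of a missing value, and none was filled in.

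Intensities were converted to log2(intensity + 1) and differenced, liver-null minus floxed, over the 258 features with 2 values. Alternatives were median and 75th percentile centring, quantile normalization, loess centring (span 0.4), no pseudocount and a pseudocount of 16. The code was tested on simulated data. With 1 array per genotype there was no test, and the number of arrays limits the precision. All 9 members were to be named whatever their values. Lists of 3p arms, cluster neighbours, other families and cell markers were not applied, because no table at hand pairs accessions with names. The members and lists were chosen with earlier results of these data known. Sequences and positions are RefSeq's (GRCm38.p6), and spanning genes were found by position without regard to strand. The tools were numpy 2.4.6 and pandas 2.3.3 under Python 3.11.15, with statsmodels 0.14.6 for loess and matplotlib 3.10.9 for plots.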

Additional observations from a re-analysis of the deposited data

How the results depend on the processing

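No paired analysis was possible because there was 1 array for each genotype, and leaving out an array was not possible either. The members' median difference, -0.09, was -0.25 with median centring and 0.082 with quantile normalization. The log2 ratio of their summed intensity, -0.13, was -0.28 and -0.0049 under these 2 settings. Quantile normalization gave 5 members higher and 3 lower, against 3 and 6. At 1.5-fold 1 member, miR-98, passed with no pseudocount, against 0. Leaving out each member in turn, the median ran from -0.11 to -0.08 and the log2 ratio of sums, a check added after seeing the data, from -0.15 to -0.10. Of 54 recomputed member differences, 51 kept their sign. Changing or omitting the pseudocount could not turn a sign, so those values kept theirs by construction. Centring on the 75th percentile moved every value by 0.02, less than the smallest member difference, -0.06 for let-7f. Median centring lowered every value by 0.15, so it could not turn a lower member. The values that did not keep their sign were let-7c, let-7d and let-7f with quantile normalization. Over all shared features, 17 were at least 2-fold higher and 14 lower. A pseudocount of 16 changed these counts to 2 higher and 7 lower, and keeping the brightest quartile alone to 3 higher and 8 lower. Median centring gave 9 higher and 20 lower, loess centring 10 and 15, and omitting the pseudocount 19 and 24, so the larger count was the lower one under each. The counts were 17 higher and 14 lower with centring on the 75th percentile and 15 and 15 with quantile normalization. Keeping only features of at least median brightness gave 13 higher and 11 lower. At 1.5-fold, 39 were higher and 38 lower, which median centring turned to 31 and 55, loess centring to 36 and 39, centring on the 75th percentile to 41 and 36, quantile normalization to 39 and 36, omitting the pseudocount to 49 and 52, and a pseudocount of 16 to 13 and 13. The settings for named miRNA lists were not run.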
